A study of Arabidopsis thaliana with 3 samples.

Results

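The 52 genes described here carry the cell division cycle and DNA replication in Arabidopsis thaliana. They were taken by locus from a list of named genes and comprise 8 D-type, 6 A-type and 8 B-type cyclins, 5 cyclin-dependent kinases (CDKs), 9 CDK inhibitors, 5 genes of the E2F and RBR1 group, 10 replication genes and KNOLLE. All 52 were found among the 33602 genes of the count tables, and all 52 passed the filter of 30 counts summed over the libraries, as 20109 genes did. The RNA came from first-pair rosette leaves of accession Col-0, in 1 library for each of 3 groups. One group was leaf explants labelled as wounded for 2 days, the second a control labelled 2 d, called the later control here and the 2-day control in the figures, and the third a control labelled T0. Seedlings were grown on diluted MS medium, and leaf explants, which can form new roots at the cut, were kept on B5 medium that held no carbohydrate. All 3 labels give the same stage, 12 days after sowing, so the label does not separate day 0 from day 2 in leaf age. No mutant, transgene or hormone is named for any group, and the labels do not say how many plants went into a library.

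In the plant cell cycle, D-type cyclins bind the kinase CDKA and phosphorylate the retinoblastoma protein RBR1, which then lets go of E2F transcription factors. E2F factors switch on genes for DNA replication, among them the MCM helicase and the sliding clamp PCNA. Later, B-type cyclins and the plant-specific B-type CDKs drive the cell from G2 into mitosis, and many of their promoters carry an MSA element, which MYB3R factors bind. KRP and SIM/SMR proteins inhibit CDKs. In leaves, division stops as the organ matures and many cells go on to endoreduplication, in which DNA is replicated with no division, so replication genes serve both modes.

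Each library held 43099934 to 46713257 gene counts. The 52 genes took 0.0909% of the counts in the explant, 0.0691% in the later control and 0.0455% at T0. Counts were scaled by TMM, a factor that makes the bulk of genes equal between libraries, and are given as CPM, each count as a share of the scaled library total. Where genes are set against each other, the level is CPM per kilobase of exon. Calls of higher and lower were made on the exact 95% counting interval of the ratio, given in brackets, which had to lie wholly beyond 2-fold. With 1 library per group there is no replicate check, no standard error and no p-value, so the calls compare these libraries and not the conditions. The 3 comparisons share their libraries and are not independent of each other. The intervals cover counting error only, and without molecular identifiers, reads cannot be taken as independent molecules. Several calls close to the limit were lost with a stricter interval level, and this is stated at each gene. Genes said not to pass did not pass with TMM scaling, and scaling by total counts added 17 calls in all. In RNA from whole tissue, more dividing cells and more RNA per dividing cell cannot be told apart.

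Replication genes and mitotic genes had different medians across the 3 libraries. Against T0, the median log2 ratio of the 12 S-phase genes was 1.15 in the later control and 1.84 in the explant. Of these 12, 4 were called higher and 1 lower in the later control than in T0, 11 higher and 0 lower in the explant than in T0, and 2 higher and 0 lower between the explant and the later control. The higher calls were 33.3%, 91.7% and 16.7% of the class, where all genes had 8.69%, 17.8% and 10.0%. The 1 lower call, 8.33%, lay near the 8.43% of all genes. In the other comparisons 13.3% and 6.74% of all genes were lower. For the 17 genes of G2 and mitosis the median against T0 was 0.06 in the later control and 1.22 in the explant. Their difference lay between the explant and the later control, where the median was 1.16. The 8 D-type cyclins had no common direction, with medians of 0.04 in the explant against the later control and -0.08 against T0. The 9 inhibitors had a median of 1.04 in the later control against T0 and -0.50 in the explant against the later control. Over all genes past the filter the medians were -0.003, 0.03 and 0.04 for explant against later control, explant against T0 and later control against T0. Scaled by total counts, which raises most ratios to T0, the median of the D-type cyclins in the explant against T0 turned to 0.21, and that of the G2 and mitosis genes in the later control was 0.33, beside 0.31 for all genes. These class differences are descriptions of 3 libraries and were not tested.

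**Figure D1:**
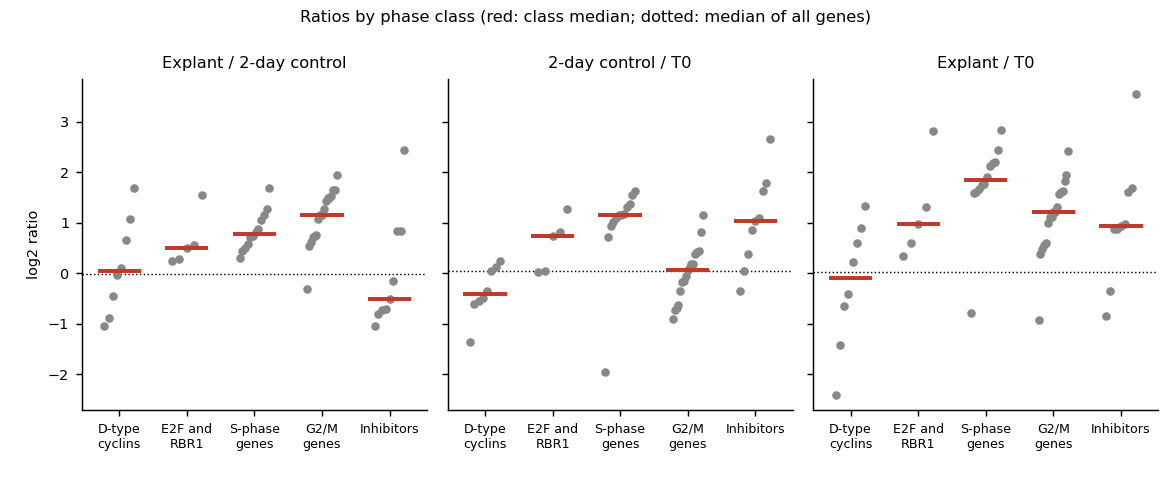
Log2 ratio of each gene (grey points) in 5 classes for the 3 comparisons, with the class median in red and the median of all genes as a dotted line. The G2 and mitosis class sits at a median of 0.06 for the later control against T0 and 1.16 for the explant against the later control, while the S-phase class has medians of 1.15 and 0.78 in these comparisons.

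Between the explant and the later control, 10 of the 52 genes were called higher and 0 lower, against 10.0% higher and 6.74% lower over all genes past the filter. The median log2 ratio was 0.73, and 40 of 52 ratios were above 1, where 10012 of all 20109 were. With a limit of 1.5-fold in place of 2-fold, 24 were higher and 5 lower. Of all 20109 genes, 3367 were then higher and 2692 lower. Between the explant and T0, 23 were called higher and 2 lower, against 17.8% and 13.3% of all genes, with a median of 1.16. Between the later control and T0, 7 were higher and 2 lower, against 8.69% and 8.43%, with a median of 0.31. Scaling by total counts in place of TMM gave 33 higher and 2 lower for the explant against T0. It gave 14 higher and 1 lower for the later control against T0. Of all genes, 4646 were then higher and 1983 lower in the first comparison, and 2546 higher and 1214 lower in the second. That scaling also moved the median of all genes to 0.32 and 0.31 in those comparisons. The explant held the highest level of 39 of the 52 genes, where 39.0% of all genes stood highest, and T0 the lowest level of 34, where 40.0% of all genes stood lowest. None of the 3 comparisons called 23 of the 52 genes, and the like count over all genes was not made.

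**Figure D2:**
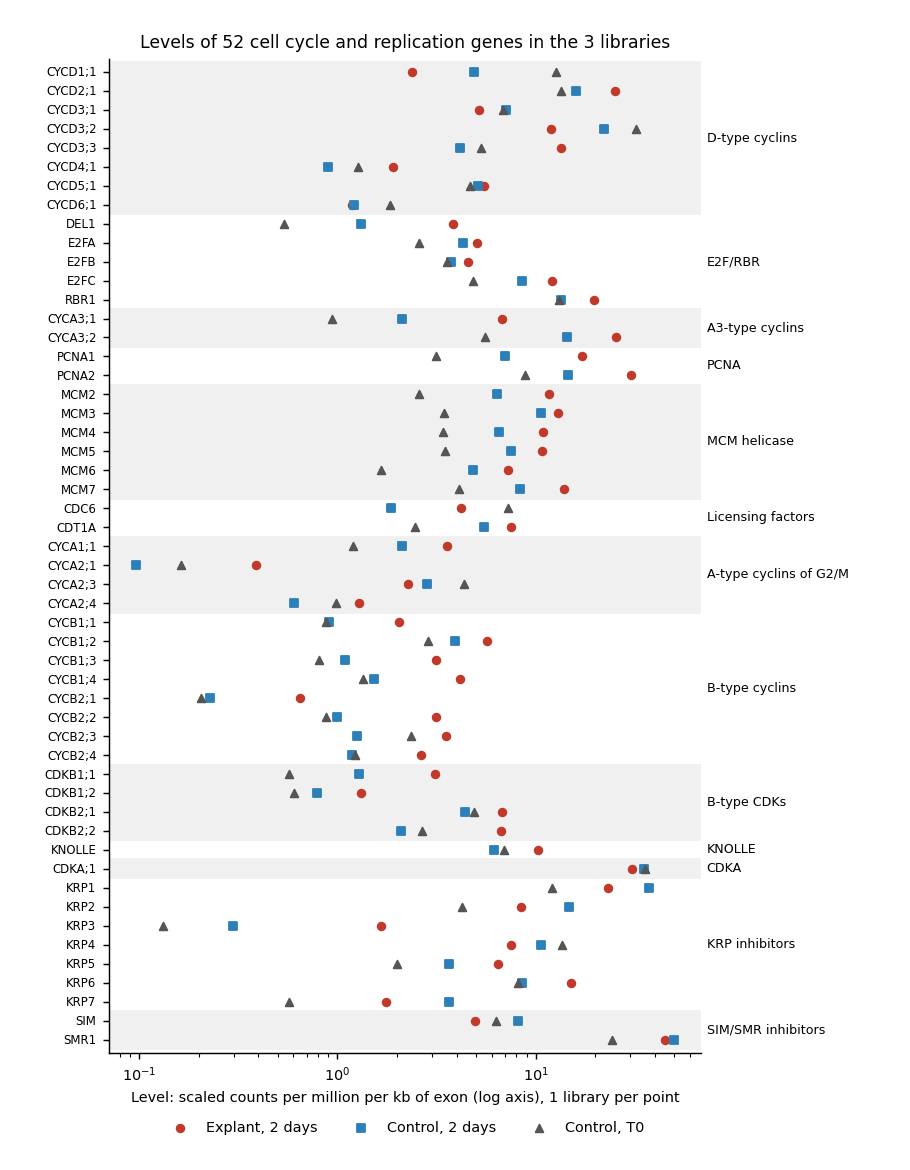
Level of each of the 52 genes in the 3 libraries, in CPM per kilobase of exon on a log axis, with 1 point per library and genes grouped by class. In the MCM, PCNA and A3-type cyclin classes every gene is ordered T0, later control, explant from low to high, whereas the D-type cyclins and KRP inhibitors have no common order.

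The D-type cyclins, which start the cycle, were divided. Their summed level was 66.8 CPM per kilobase in the explant, 61.4 in the later control and 78.2 at T0. Within these sums, 1 of the 8 genes was higher in the explant than in either control, and 2 were lower than in T0. These are 12.5% and 25.0% of the class. Of all genes, 10.0% were higher than in the later control, and 17.8% higher and 13.3% lower than in T0. CYCD3;3 (AT3G50070), one of the 3 CYCD3 genes that keep leaf cells dividing, had 971 counts in the explant, 287 in the later control and 290 at T0, or 19.3, 6.02 and 7.65 CPM. The explant alone was high, and the 2 controls lay close together. The ratio was 3.21 against the later control (2.81 to 3.68) and 2.53 against T0 (2.21 to 2.89). Its sister CYCD3;2 (AT5G67260) ran the other way, with 1015, 1766 and 2053 counts in the same order, or 20.21, 37.02 and 54.16 CPM. It was 2.68 times lower in explant tissue than in T0 (2.48 to 2.89), and its ratio to the later control was 0.546 (0.505 to 0.590), which did not pass. The third sister, CYCD3;1 (AT4G34160), had ratios of 0.734 (0.651 to 0.827) and 0.758 (0.667 to 0.861) in the explant against the later control and T0.

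CYCD1;1 (AT1G70210) had the largest difference from T0 among the D-type cyclins, with 300, 587 and 1201 counts in the explant, the later control and T0. In CPM these were 5.97, 12.3 and 31.7, highest at T0 and lowest in the explant. It was 5.30 times lower in explant tissue than in T0 (4.67 to 6.04) and 2.58 times lower in the later control than in T0 (2.33 to 2.85), and the latter call was lost on scaling by total counts. CYCD2;1 (AT2G22490), with 2200, 1325 and 886 counts, was the most abundant D-type cyclin of the explant at 25.1 CPM per kilobase, where CYCD3;2 held that place at T0 at 32.2. Its ratios of 1.58 (1.47 to 1.69) against the later control and 1.87 (1.73 to 2.03) against T0 did not pass with TMM scaling. Scaled by total counts, CYCD2;1 passed in the explant against T0. CYCD4;1 (AT5G65420) had 194, 87 and 97 counts and a ratio of 2.12 to the later control (1.64 to 2.76). CYCD5;1 (AT4G37630) differed by 1.18 times at most, in the explant against T0. CYCD6;1 (AT4G03270), known from formative divisions of the root ground tissue, had 96, 93 and 113 counts, and its ratio of explant to later control was 0.981 (0.730 to 1.32), with 24.4% of its exon bases in an opposite model.

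Of the E2F and RBR1 group, which links the D-type cyclins to replication, DEL1 (AT3G48160) differed most. It encodes an atypical E2F known to hold back endoreduplication. DEL1 had 366, 119 and 39 counts in the explant, the later control and T0, or 7.29, 2.50 and 1.03 CPM, a stepwise order with the explant highest. Its ratios were 2.92 to the later control (2.37 to 3.62) and 7.08 to T0 (5.08 to 10.1), and 16.2% of its exon bases are shared with the model on the opposite strand. E2FC (AT1G47870), an E2F known mainly as a repressor, had 1019, 684 and 309 counts, or 20.3, 14.3 and 8.15 CPM, and was 2.49-fold higher in the explant than in T0 (2.19 to 2.84). The activators E2FA (AT2G36010, E2F3 in the reference names) and E2FB (AT5G22220) passed in no comparison with TMM scaling. E2FA had 537, 433 and 206 counts, with a ratio of explant to T0 of 1.97 (1.67 to 2.32). Scaled by total counts, E2FA passed in that comparison. E2FB ratios lay between 1.04 and 1.27. RBR1 (AT3G12280) was the most abundant of the 5 at 19.8, 13.4 and 13.1 CPM per kilobase, and its ratio was 1.48 to the later control (1.41 to 1.56). All 5 stood highest in the explant and lowest at T0.

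The 6 MCM genes encode the subunits of the ring helicase that unwinds DNA at the fork. Their promoters are shown because the 6 genes moved together and because E2F sites are the textbook route to them. In the reference assembly TAIR10.1 from RefSeq, a window from 250 bases before to 50 bases after the annotated gene start was searched on both strands for TTTCCCG or TTTGGCG, the E2F-type motif. The assembly was matched by locus tag whereas the submitters name TAIR10, so positions refer to TAIR10.1 alone. Of the 6 MCM windows 5 held the motif, or 83.3%, and so did 6 of the 12 S-phase windows, against 4.39% of 27443 protein-coding genes. The stretches below lie upstream of the gene start and are read 5′ to 3′ on the strand of the gene. Capitals mark the motif, which reads CGGGAAA or CGCCAAA where it lies on the other strand.
MCM2 at chr1:16970178-16970213, plus strand: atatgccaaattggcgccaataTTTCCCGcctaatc
MCM4 at chr2:7130735-7130785, minus strand: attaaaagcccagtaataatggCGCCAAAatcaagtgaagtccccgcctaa
MCM5 at chr2:3527501-3527541, minus strand: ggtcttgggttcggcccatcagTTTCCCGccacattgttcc
MCM6 at chr5:18010684-18010734, minus strand: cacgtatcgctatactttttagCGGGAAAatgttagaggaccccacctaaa
MCM3 at chr5:18773736-18773897, minus strand: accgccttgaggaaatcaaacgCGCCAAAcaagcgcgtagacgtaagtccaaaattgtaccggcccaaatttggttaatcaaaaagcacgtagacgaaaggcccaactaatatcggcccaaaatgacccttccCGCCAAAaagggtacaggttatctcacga
MCM3 alone among them held 2 matches upstream of the start. MCM7 held none in this window, which says only that these letters are not there. The motif is a match of letters and not evidence that a factor was bound.

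All 6 MCM genes were higher in the explant than in T0, where 17.8% of all genes were higher. Each of the 6 stood highest in the explant and lowest at T0. Their summed level was 67.4 CPM per kilobase in the explant, 44.3 in the later control and 18.7 at T0. MCM2 (AT1G44900) had 1867, 971 and 311 counts, or 37.2, 20.4 and 8.20 CPM. It was 4.53-fold higher in explant tissue than in T0 (4.02 to 5.13), and in the later control 2.48-fold (2.18 to 2.83). MCM6 (AT5G44635), with 1062, 676 and 183 counts and 21.1, 14.2 and 4.83 CPM, was 4.38-fold (3.74 to 5.15) and 2.94-fold higher (2.49 to 3.48). MCM3 (AT5G46280) had 1986, 1536 and 397 counts, or 39.5, 32.2 and 10.5 CPM. Its ratios to T0 were 3.78 (3.39 to 4.22) and 3.07 (2.75 to 3.44), so the 2 libraries of day 2 lay close together and apart from T0.

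MCM7 (AT4G02060), the member with no motif in its window, had 1842, 1057 and 415 counts, or 36.7, 22.2 and 10.9 CPM, and was 3.35-fold higher in the explant than in T0 (3.01 to 3.74). Its ratio lay among those of the other 5 MCM genes. Any relation between the motif and the ratio was not tested. MCM4 (AT2G16440) had 1563, 891 and 371 counts, or 31.1, 18.7 and 9.79 CPM, a ratio of 3.18 (2.84 to 3.57). MCM5 (AT2G07690) had 1452, 969 and 358 counts, or 28.9, 20.3 and 9.45 CPM, a ratio of 3.06 (2.73 to 3.45). The later control to T0 ratios of these 3 genes were between 1.91 and 2.15 and did not pass. Scaled by total counts, all 3 passed. Against the later control, none of the 6 passed. Those ratios ran from 1.23 for MCM3 (1.15 to 1.31) to 1.83 for MCM2 (1.69 to 1.98), with intervals that lay above 1 in all 6.

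The sliding clamp genes, which hold the polymerase on DNA, showed a larger step in the explant. PCNA1 (AT1G07370) had 970, 379 and 135 counts in the explant, the later control and T0, or 19.3, 7.95 and 3.56 CPM. It was 2.43-fold higher in explant tissue than in the later control (2.16 to 2.75), a call that was lost with the stricter interval level, and 5.42-fold higher than in T0 (4.53 to 6.54). PCNA2 (AT2G29570) had 1801, 822 and 397 counts, or 35.9, 17.2 and 10.5 CPM, and was 3.42-fold higher in the explant than in T0 (3.07 to 3.83). Its ratio to the later control was 2.08 (1.92 to 2.26), and 23.6% of its exon bases lie in a gene model on the opposite strand. Neither PCNA window held the E2F-type motif.

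The 2 licensing factors, which load the MCM ring onto origins, differed from each other. CDT1A (AT2G31270) followed the MCM genes, with 818, 569 and 204 counts, or 16.3, 11.9 and 5.38 CPM, and was 3.03-fold higher in the explant than in T0 (2.59 to 3.55). CDC6 (AT2G29680) had 486, 206 and 636 counts, or 9.68, 4.32 and 16.8 CPM, and was the one S-phase gene with its highest level at T0. It was 3.89 times lower in the later control than in T0 (3.32 to 4.57), while its ratio of explant to later control was 2.24 (1.90 to 2.65) and of explant to T0 0.577 (0.512 to 0.650). The A3-type cyclins, which accumulate in S phase, had large ratios. CYCA3;1 (AT5G43080) had 537, 159 and 56 counts, or 10.7, 3.33 and 1.48 CPM, and was 3.21-fold higher in the explant than in the later control (2.68 to 3.85) and 7.24-fold higher than in T0 (5.49 to 9.71). CYCA3;2 (AT1G47210), at 2308, 1237 and 377 counts or 46.0, 25.9 and 9.95 CPM, was 4.62-fold (4.14 to 5.17) and 2.61-fold higher (2.32 to 2.93) than in T0 in the explant and the later control.

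Of the 17 genes of G2 and mitosis, 16 stood highest in the explant, and 5 were called higher there than in the later control and 6 higher than in T0. The shares were 29.4% and 35.3%, where 10.0% and 17.8% of all genes were higher. None of the 17 passed between the later control and T0, where 8.69% of all genes were higher and 8.43% lower. The B-type cyclins are shown with their promoters because many promoters of such genes are known to carry an MSA element. The MSA-type motif, searched as CNAACGG on both strands, was found in 7 of the 8 B-type cyclin windows, or 87.5%, and in 9 of the 17 windows of the class, against 5.52% of all protein-coding genes. It was found in 0 of the 12 S-phase windows, and 1 G2 and mitosis window, that of KNOLLE, held the E2F-type motif. Below are 4 stretches upstream of the start, with the motif in capitals, which reads CCGTTNG where it lies on the other strand.
CYCB1;1 at chr4:17624341-17624391, minus strand: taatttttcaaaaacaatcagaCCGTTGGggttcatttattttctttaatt
CYCB1;3 at chr3:3627286-3627359, minus strand: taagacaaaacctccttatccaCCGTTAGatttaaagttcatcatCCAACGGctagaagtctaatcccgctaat
CYCB2;2 at chr4:16901402-16901498, plus strand: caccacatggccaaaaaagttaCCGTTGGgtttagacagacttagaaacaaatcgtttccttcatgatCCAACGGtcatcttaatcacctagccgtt
CYCB1;2 at chr5:1861704-1861870, minus strand: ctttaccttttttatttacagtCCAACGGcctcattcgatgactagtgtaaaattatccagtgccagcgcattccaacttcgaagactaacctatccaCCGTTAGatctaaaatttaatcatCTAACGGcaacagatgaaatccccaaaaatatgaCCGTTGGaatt
The last of these held 4 matches upstream of its start and had the smallest ratio of explant to later control among the B-type cyclins, 1.46 (1.27 to 1.68). The first, which held 1, had a ratio of 2.25 (1.69 to 3.01). No relation between the number of matches and the ratio was tested, and the count of CYCB1;2 is uncertain because of a near-identical copy.

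**Figure D3:**
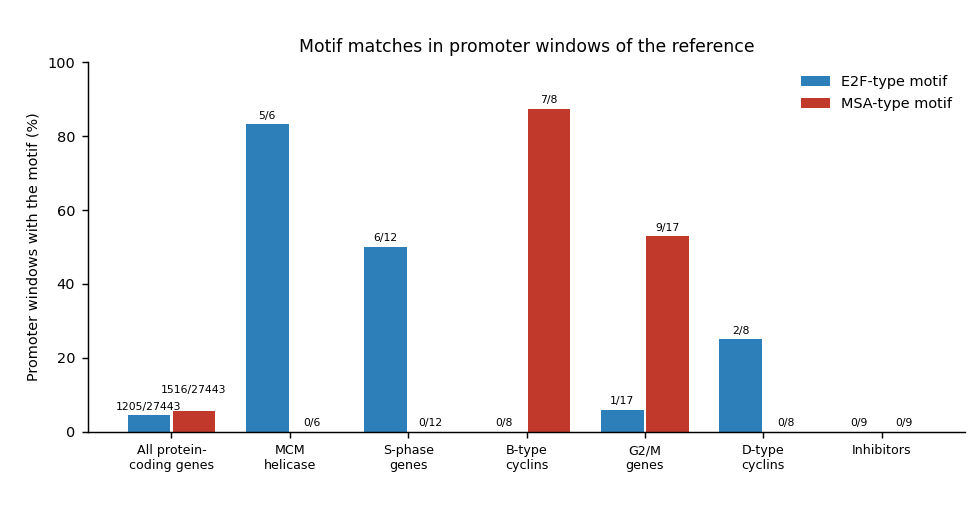
Share of promoter windows, in percent, that held the E2F-type motif (blue) or the MSA-type motif (red), for all protein-coding genes of TAIR10.1 and for classes of the 52 genes, with the number of windows over each bar. The E2F-type motif stood in 5 of 6 MCM windows and the MSA-type motif in 7 of 8 B-type cyclin windows, while neither was found in the 9 inhibitor windows.

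The B-type cyclins, which activate CDKs at the entry into mitosis, had a summed level of 25.1 CPM per kilobase in the explant, 11.1 in the later control and 10.6 at T0. Against the later control 4 of the 8 were higher, and all 8 ratios were above 1. Of all genes, 10.0% were higher, and 10012 of 20109 had ratios above 1. CYCB2;2 (AT4G35620) had 274, 83 and 58 counts, or 5.46, 1.74 and 1.53 CPM, with both controls low. It was 3.14-fold higher in explant tissue than in the later control (2.45 to 4.06) and 3.57-fold higher than in T0 (2.68 to 4.82). CYCB1;3 (AT3G11520) had 263, 86 and 51 counts, or 5.24, 1.80 and 1.35 CPM, with ratios of 2.90 (2.27 to 3.75) and 3.89 (2.88 to 5.36). CYCB1;4 (AT2G26760) had 380, 134 and 93 counts, or 7.57, 2.81 and 2.45 CPM, with ratios of 2.69 (2.21 to 3.31) and 3.08 (2.45 to 3.91). In both of these genes the call against the later control was lost with the stricter interval level.

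CYCB2;3 (AT1G20610) had 358, 120 and 179 counts, or 7.13, 2.52 and 4.72 CPM, with the later control lowest. It was 2.83-fold higher in explant tissue than in the later control (2.30 to 3.52) and had a ratio to T0 of 1.51 (1.26 to 1.82). A stretch of 583 bases of this gene matches AT1G20590 at 97.3% identity, so its count is uncertain, as is that of CYCB1;2 (AT5G06150), which shares 390 bases with another cyclin gene at 97.7%. The other B-type cyclins had ratios to the later control from 1.46 to 2.85 and passed in no comparison with TMM scaling. Scaled by total counts, all of them passed in the explant against T0. Among them CYCB1;1 (AT4G37490), whose product is the usual marker of cells in G2 and mitosis, had 168, 71 and 54 counts. CYCB2;1 (AT2G17620) had 54, 18 and 13 counts, and its interval of 1.64 to 5.16 against the later control was wide at this depth. CYCB2;4 (AT1G76310) had 310, 132 and 108 counts, and a ratio of 2.23 (1.81 to 2.76).

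Of the 4 B-type CDKs, the partners of these cyclins, CDKB2;2 (AT1G20930) had 466, 140 and 141 counts, or 9.28, 2.94 and 3.72 CPM. The explant stood apart and the controls lay together. It was 3.16-fold higher in explant tissue than in the later control (2.61 to 3.85) and 2.50-fold higher than in T0 (2.06 to 3.03), the second lost with the stricter interval level. Its close relative CDKB2;1 (AT1G76540), with 467, 288 and 253 counts, had ratios of 1.54 (1.33 to 1.79) and 1.39 (1.19 to 1.63). CDKB1;1 (AT3G54180) had 216, 85 and 30 counts, or 4.30, 1.78 and 0.791 CPM, a stepwise order, and was 5.43-fold higher in the explant than in T0 (3.70 to 8.25). CDKB1;2 (AT2G38620) had 101, 58 and 35 counts and passed in no comparison. None of the 4 windows held either motif.

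The remaining genes of the class were more mixed. CYCA1;1 (AT1G44110), a mitotic A-type cyclin with 2 MSA-type matches, had 329, 185 and 83 counts, or 6.55, 3.88 and 2.19 CPM, and was 2.99-fold higher in the explant than in T0 (2.35 to 3.85). CYCA2;3 (AT1G15570), known as a brake on endoreduplication, had 234, 275 and 335 counts and was the one gene of the class lowest in the explant, with a ratio to T0 of 0.527 (0.444 to 0.625) that did not pass. CYCA2;1 (AT5G25380) and CYCA2;4 (AT1G80370) had 38, 9 and 12 and 118, 53 and 68 counts, with ratios to the later control of 4.01 (1.91 to 9.43) and 2.12 (1.52 to 2.98). KNOLLE (AT1G08560), the syntaxin that fuses vesicles at the new cell plate, had 712, 407 and 363 counts and a ratio of 1.66 (1.47 to 1.88) to the later control, with 33.5% of its exon bases also in the opposite gene NPQ1. CDKA;1 (AT3G48750), the kinase used throughout the cycle, had 2316, 2526 and 2018 counts, or 46.1, 53.0 and 53.2 CPM. Its ratio of 0.871 (0.823 to 0.922) to the later control stood below 1 in every scaling run, whereas its log2 ratio of explant to T0 turned from -0.21 to 0.08 with total counts.

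**Figure D4:**
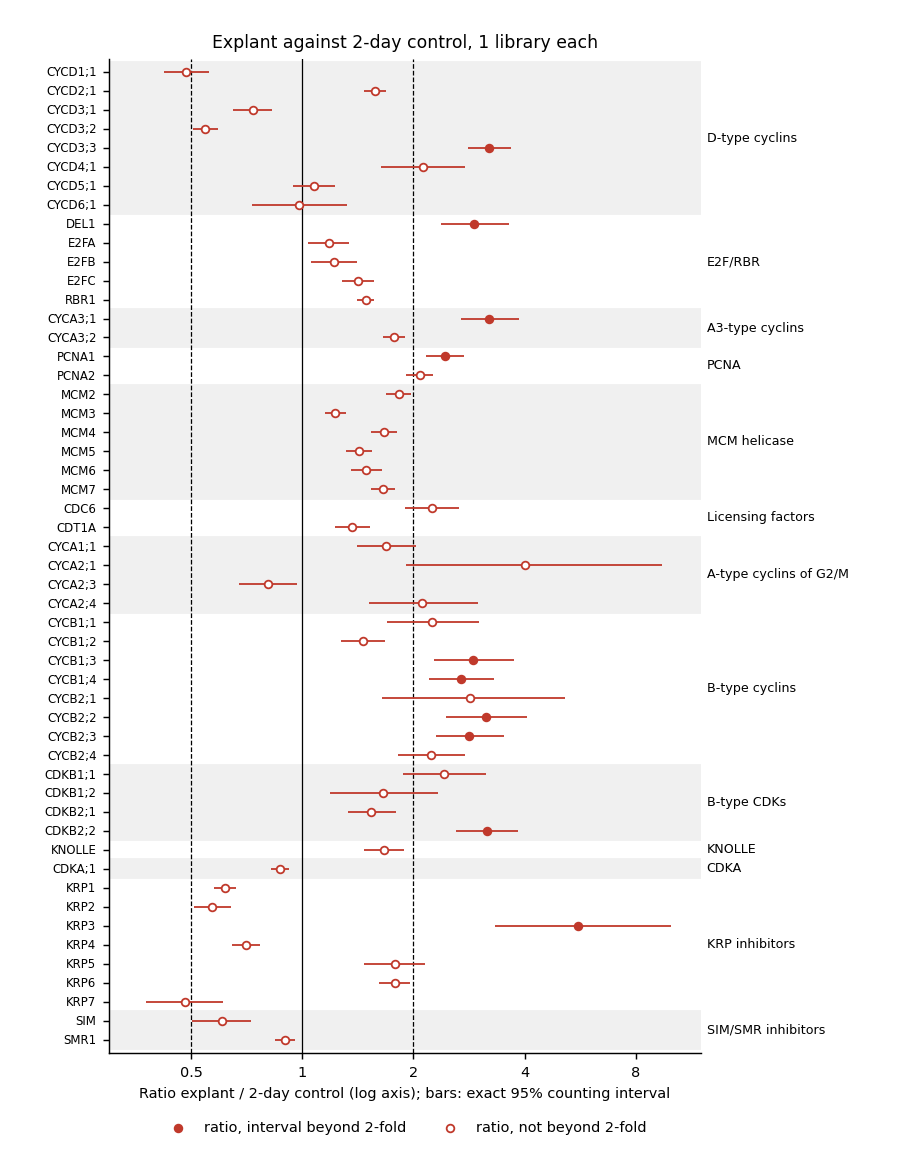
Ratio of explant to later control for the 52 genes on a log axis, with the exact 95% counting interval as a bar and filled points where it lies beyond 2-fold (dashed lines at 0.5 and 2). The 10 filled points all lie to the right, led by KRP3 at 5.59, and 4 of them are B-type cyclins.

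The CDK inhibitors did not move as 1 group. Of the 7 KRP genes, 3 were higher than in T0 in the later control and 3 in the explant, and KRP7 was in both sets. Each set is 42.9% of the 7, where 8.69% and 17.8% of all genes were higher. Against the later control 1 was higher in the explant, and the other 6 did not pass. That share of 14.3% lay near the 10.0% of all genes. KRP3 (AT5G48820) had 100, 17 and 6 counts in the explant, the later control and T0, or 1.99, 0.356 and 0.158 CPM. It was low in both controls and had the largest ratios of the 52 genes, 5.59 to the later control (3.32 to 9.97) and 12.6 to T0 (5.58 to 35.1). KRP5 (AT3G24810) had 320, 171 and 75 counts, or 6.37, 3.58 and 1.98 CPM, and was 3.22-fold higher in the explant than in T0 (2.50 to 4.20).

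KRP1, KRP2 and KRP7 stood highest in the later control. KRP1 (AT2G23430) had 1361, 2093 and 536 counts, or 27.1, 43.9 and 14.1 CPM, and was 3.10-fold higher in the later control than in T0 (2.82 to 3.42), with a ratio of explant to later control of 0.618 (0.577 to 0.662). KRP2 (AT3G50630), which is known to be repressed by auxin in lateral root initiation, had 477, 794 and 183 counts, or 9.50, 16.6 and 4.83 CPM. It was 3.45-fold higher in the later control than in T0 (2.93 to 4.07), and its ratio of explant to later control was 0.571 (0.508 to 0.640). KRP7 (AT1G49620) had 107, 211 and 26 counts, or 2.13, 4.42 and 0.686 CPM, and was 6.45-fold (4.28 to 10.1) and 3.11-fold higher (2.01 to 4.97) than in T0 in the later control and the explant, the latter lost with the stricter interval level. Its ratio between those libraries was 0.482 (0.378 to 0.611).

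The other inhibitors passed in no comparison with TMM scaling. Scaled by total counts, KRP6 and SMR1 passed in the explant against T0, and SMR1 also in the later control against T0. KRP4 (AT2G32710) was the KRP gene with its highest level at T0, at 904, 1216 and 1230 counts and a ratio of explant to T0 of 0.555 (0.509 to 0.605), but 38.7% of its exon bases lie in a model on the opposite strand. KRP6 (AT3G19150) had 1153, 616 and 471 counts and ratios of 1.78 (1.61 to 1.96) and 1.85 (1.66 to 2.06) in the explant. SMR1 (AT3G10525), which promotes endoreduplication in leaf cells, was the most abundant of the 52 genes in both 2-day libraries, at 44.7 CPM per kilobase in the explant and 49.7 in the later control. At T0 it stood at 24.2, below CDKA;1 at 35.5, the most abundant there. The SMR1 ratio of later control to T0 was 2.05 (1.89 to 2.24), and 40.3% of its exon bases are shared with an opposite model. SIM (AT5G04470), needed to keep trichomes single-celled, had 197, 309 and 189 counts, with 31.4% of its exon bases in an opposite model.

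**Figure D5:**
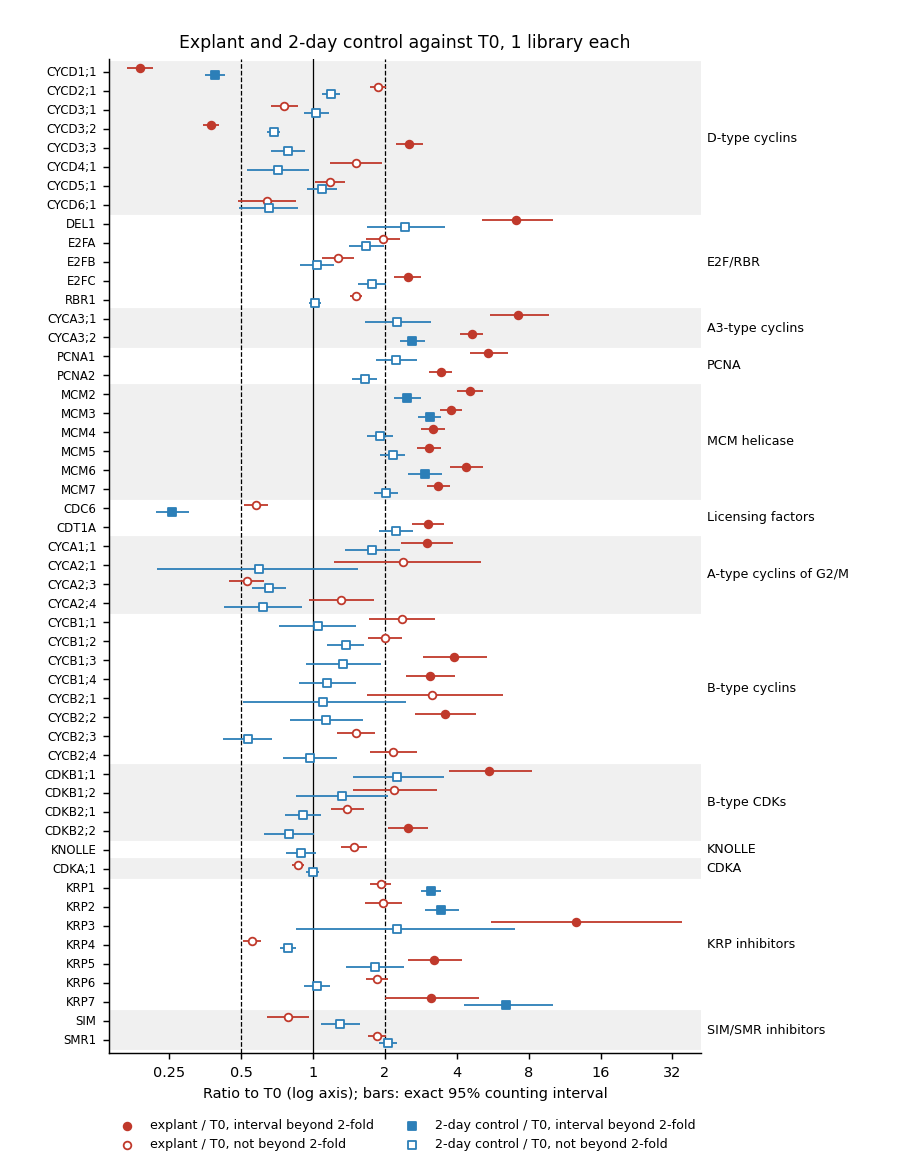
Ratio to T0 of the explant (red circles) and of the later control (blue squares) for the 52 genes on a log axis, with exact 95% counting intervals and filled points where the interval lies beyond 2-fold. All 6 MCM genes are filled for the explant and 3 of them for the later control, while no B-type cyclin or B-type CDK is filled for the later control. Scaling is by TMM, and by total counts the other 3 MCM genes passed for the later control too.

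Further genes of the same processes were listed by their known function. Of 20 other replication genes, 3 were higher in the explant than in the later control, 12 higher than in T0, and 4 higher in the later control than in T0, with 0 lower in each. Of all genes 10.0%, 17.8% and 8.69% were higher in these comparisons, and the first lies near the 15.0% of the list. Their median log2 ratios were 0.72, 1.70 and 0.86. ORC6 (AT1G26840), of the origin recognition complex, had 534, 112 and 49 counts and was 4.53-fold higher in the explant than in the later control (3.69 to 5.60) and 8.23-fold higher than in T0 (6.13 to 11.3). RNR1 (AT2G21790), the large subunit of ribonucleotide reductase, had 6744, 2964 and 723 counts and was 7.04-fold higher in the explant (6.52 to 7.61) and 3.26-fold higher in the later control (3.002 to 3.538) than in T0. TSO2 (AT3G27060), a small-subunit gene of this enzyme, was 2.80-fold higher in the later control than in T0 (2.60 to 3.02). RNR2A (AT3G23580), another small-subunit gene, had 1141, 1171 and 558 counts and passed in no comparison. MET1 (AT5G49160), which copies DNA methylation behind the fork, was 2.45-fold higher in the explant than in the later control (2.33 to 2.58).

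Of 14 other genes of mitosis and cytokinesis, 0 passed between the explant and the later control, 3 were higher in the explant than in T0, and 0 passed between the later control and T0. The 3 are 21.4% of the list, near the 17.8% of all genes. All 14 ratios of explant to later control were above 1, with a median log2 ratio of 0.76. Of all 20109 genes, 10012 had such a ratio above 1. HIK (AT1G18370), a kinesin needed for cytokinesis, had 593, 253 and 118 counts and was 3.79-fold higher in the explant than in T0 (3.11 to 4.66). CENH3 (AT1G01370), the centromeric histone, was 3.30-fold higher (2.48 to 4.44).

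Of 9 genes of endoreduplication and further inhibition, 3 were higher in the explant than in the later control and 0 lower. Against T0, the explant had 4 higher and 1 lower, and the later control 2 higher and 1 lower. The median log2 ratios in these 3 comparisons were 0.19, 1.60 and -0.035. FZR2, CCS52A2 and SMR8 of this list passed in no comparison. Their ratios of explant to later control were 1.14 (1.04 to 1.25), 1.12 (0.981 to 1.29) and 0.526 (0.379 to 0.724). The higher genes are 33.3%, 44.4% and 22.2% of this short list, where all genes had 10.0%, 17.8% and 8.69%, and the 1 lower gene is 11.1%, where all genes had 13.3% in the explant and 8.43% in the later control. WEE1 (AT1G02970), a checkpoint kinase that restrains CDKs when replication is disturbed, had 411, 105 and 34 counts. It was 3.72-fold higher in explant tissue than in the later control (2.99 to 4.65) and 9.12-fold higher than in T0 (6.42 to 13.4). DEL3 (AT3G01330), an atypical E2F like DEL1, was 4.17-fold higher in the explant than in the later control (3.02 to 5.88). The third gene of that family, DEL2 (AT5G14960), went the other way with 52, 63 and 387 counts, 9.86 times lower in the explant than in T0 (7.37 to 13.4) and 7.73 times lower in the later control (5.91 to 10.3). SMR2 (AT1G08180) was 3.51-fold higher in the explant (2.73 to 4.55) and 2.65-fold higher in the later control (2.04 to 3.47) than in T0, and SMR4 (AT5G02220) 4.65-fold higher in the later control (2.07 to 12.3).

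Of 6 DNA damage response genes, the explant had 3 higher and 0 lower against the later control, and as many against T0, and 0 passed between the controls. Of all genes 10.0% and 17.8% were higher in these comparisons. BRCA1 (AT4G21070) had 902, 241 and 135 counts and was 3.56-fold higher in the explant than in the later control (3.08 to 4.12). Against T0 it was 5.04-fold higher (4.21 to 6.09). Of 13 other cyclin and CDK genes, 2 were higher and 1 lower in the explant than in the later control, among them CKS2 (AT2G27970), a CDK subunit, at 2.48-fold (2.14 to 2.89). The mitotic cyclin CYCB3;1 (AT1G16330) was 2.85-fold higher (2.09 to 3.93). Both were also higher than in T0, by 2.61-fold (2.21 to 3.09) and 3.02-fold (2.14 to 4.34). Against T0, the explant had 2 higher and 1 lower and the later control 0 higher and 1 lower, the lower gene in both being CYCA1;2 (AT1G77390), 3.69 times lower in the explant (2.98 to 4.60) and 2.93 times in the later control (2.40 to 3.60). The gene called lower in the explant against the later control was CYCB1;5 (AT1G34460), with 2, 26 and 12 counts and a ratio of 0.0731 (0.00841 to 0.292). It shares near-identical stretches with CYCB1;2 and other models, so its value is uncertain. For the explant against the later control, the list's shares of 15.4% higher and 7.69% lower lay near the 10.0% and 6.74% of all genes, and against T0 the same shares stood beside 17.8% and 13.3%.

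Markers of cell types that divide in leaves or at the cut were read in the same libraries. The summed level of 7 stomatal lineage genes was 15.6 CPM per kilobase in the explant, 19.5 in the later control and 21.0 at T0, with none of the 7 at 0. Without FAMA, which also marks mature guard cells and made up most of that sum, counts were low, and SPCH (AT5G53210), the gene that starts the lineage, had 19, 40 and 40. The receptor gene TMM (AT1G80080) and the peptide gene EPF1 of that list were 3.46 times (2.65 to 4.56) and 4.16 times lower (2.51 to 7.17) in the explant than in T0. The 3 procambium and cambium genes summed to 31.2, 23.7 and 23.2 CPM per kilobase, and WOX4 (AT1G46480) among them was 3.09-fold higher in the explant than in the later control (2.60 to 3.69). The other members, PXY (AT5G61480) and HB-8 (AT4G32880), did not pass, with ratios of 1.14 (1.07 to 1.21) and 1.08 (1.014 to 1.153), and HB-8 stood highest at T0. The 3 root founder cell genes summed to 6.97, 0.159 and 0, with 58 counts of WOX11 and 369 of LBD16 in the explant and 0 of either in both controls, and WOX5 at 0 at T0. Of 3 shoot meristem genes, 20 counts of STM were found in the explant and 0 in each control, and CLV3 was at 0 in all libraries. The 3 young leaf growth genes summed to 4.30, 3.56 and 4.83, most of it from ANT (AT4G37750), which had 442, 353 and 274 counts and a ratio of explant to T0 of 1.22 (1.04 to 1.42). GIF1 (AT5G28640) ran the other way with 24, 14 and 134 counts, 7.40 times lower in explant tissue than in T0 (4.76 to 11.9), and GRF5 had 2, 0 and 1. The 3 mesophyll genes summed to 2128, 2724 and 5720, so the genes of photosynthetic leaf cells were abundant in all 3 libraries. Most of the difference from T0 came from CAB3 (AT1G29910), at 187, 300 and 2761. Against T0 it was 14.76 times lower in the explant (14.48 to 15.05) and 9.20 times lower in the later control (9.06 to 9.35). It shares 836 bases with CAB1 at 96.1% identity, so its count is uncertain. RBCS3B and RBCS1A did not pass, with ratios of explant to T0 of 0.551 and 0.715. The part of these cell types in the levels of the 52 genes was not tested.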

How the data were processed

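RNA-seq gene counts were read for 3 leaf libraries, 1 per group. The values are whole read counts per gene, deposited by the authors as tables in the output form of HTSeq. Per the submitters' processing notes, FastQC, HTSeq and DESeq were used with build TAIR10; aligner, annotation release, library kit and strand setting were not given in the sources used here. Because strand use in counting is unknown, reads of overlapping opposite models cannot be told apart. Rows that name no gene were left out, among them ambiguous reads at 2.12% to 2.18% and reads in no feature at 0.677% to 0.763% of the counts.

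Counts were scaled by TMM over the 3 libraries (edgeR 4.0.16 in R 4.3.3). Ratios and their exact Clopper-Pearson 95% intervals were computed from the counts of 2 libraries in Python 3.11.15 (scipy 1.17.1, numpy 2.4.6, pandas 2.3.3), and figures were drawn with matplotlib 3.10.9. A gene was tested at 30 or more counts summed over the libraries and called where the interval lay beyond 2-fold. Log2 ratios used a prior count of 0.5. The calling procedure was run on simulated counts that held counting error alone. Because they held no spread between plants or libraries, they could not test how the calls would hold across replicates. No test of conditions was possible with 1 library each, and no p-value was computed.

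Exon lengths, names, overlapping models, near-identical copies (blastn 2.17.0, at least 95% identity over 100 bases) and promoter windows came from RefSeq's TAIR10.1, matched by locus tag. Each gene called in any comparison was named with its values, the other members by class. Of each further pathway list, up to 2 higher and 2 lower genes per comparison were named, those whose nearer interval bound lay farthest from 1. One gene that this rule names is not reported here. A pathway locus was used where the reference gave its name or no other symbol, which left out 5 loci, and 62 of the 66 others passed the filter. The members and lists were chosen with earlier results of these data known. Alternatives were other scalings (with DESeq2 1.42.0 size factors among them), count filters, fold limits, a stricter interval level and prior counts. The one that leaves out copied genes and genes with 20% or more overlap was chosen after seeing the data.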

Additional observations from a re-analysis of the deposited data

How the results depend on the processing

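With a 1.5-fold limit, 24 of the 52 genes were higher and 5 lower in the explant than in the later control, 5 were lower in the explant than in T0, and 16 were higher in the later control than in T0. With a 4-fold limit, 0 were higher in the explant than in the later control, 6 higher and 1 lower in the explant than in T0, and 1 higher and 0 lower in the later control than in T0. These shifts follow from the limit itself. Scaling by total counts moved the median log2 ratio of the members to 1.45 for the explant against T0 and to 0.58 for the later control against T0, where 14 were then higher and 1 lower. It raised the share of higher calls among all called genes from 57.1% to 70.1% and from 50.8% to 67.7% in these comparisons. DESeq2 size factors and TMM on 2 libraries changed none of the 156 single calls of the members, the stricter interval level ended 5, and total counts added 17 and ended 1. One alternative left out the 8 members with a near-identical copy elsewhere or with 20% or more of their exon bases in another model. Of the other 44, 9, 22 and 7 were higher in the 3 comparisons, where all genes had 10.0%, 17.8% and 8.69%. Members with smaller overlaps stayed in, among them DEL1 at 16.2% and CDKB2;2 at 13.8%. Of the counts, medians and called ratios of the members, none changed direction in the alternatives run; of the class medians, that of the D-type cyclins in the explant against T0 went from -0.08 to 0.21 with total counts, and the ratio of CDKA;1, a class of 1 gene, from -0.21 to 0.08 in the explant and from -0.01 to 0.26 in the later control against T0. No paired analysis was possible because each group has 1 library and the groups share 1 replicate number. Depth limits the genes with few counts, such as KRP3 at T0.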
